A study of Mus musculus with 66 samples.

Results

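The genes described here are 9 that encode proteins of the junctions sealing the lung epithelium: the claudins Cldn1, Cldn3, Cldn4, Cldn6, Cldn7 and Cldn18, occludin (Ocln), zonula occludens 1 (Tjp1) and E-cadherin (Cdh1). They are 9 of 18193 genes measured. A gene was taken from the platform annotation where a probe set (a group of short array probes read as 1 signal) was assigned to it alone, which gave 17 probe sets of 45101, and the brightest by its mean over all arrays stood for the gene. The choice used no comparison between groups. Total RNA of homogenized mouse lung was hybridised to 66 one-colour Affymetrix arrays in 22 groups of 3. Knockout mice (Nrf2-/-, without functional Nrf2) and wild-type mice (Nrf2+/+) were each sampled at 11 ages. Before birth these were embryonic days E13.5 and E15.5 and then E17.5 with E18.5. After birth they were the day of birth (PND0), each of the next days from PND1 through PND4, and later PND14 as well as PND42. All mice had AIN-76A feed. The sources used here state no other treatment and no strain. At E13.5 each sample combined 2 to 3 lungs, and at other ages it was 1 lung, which the series calls biological replicates. The comparison asks how loss of Nrf2, a transcription factor of antioxidant defence encoded by Nfe2l2, affects gene expression as the lung develops.

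Tight junctions are strands near the apical edge of epithelial cells that limit what passes between neighbouring cells. Claudins form the strands and set which ions and how much water can pass, occludin lies in the same strands, and zonula occludens 1 is the scaffold beneath them that links them to actin. E-cadherin belongs to the adherens junction just below, which holds the cells together and is needed for tight junctions to assemble. In lung, claudin 18 has a lung-specific isoform found in alveolar epithelium, claudins 3 and 4 are found in alveolar and airway epithelium, and claudin 6 is known mainly from embryonic epithelia. Around birth the epithelium changes from secreting fluid to absorbing it.

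The sequence before the start site is shown for the claudins that differed between genotypes at a single age, since Cldn3 and Cldn4 are neighbours on chromosome 5 and Cldn6 lies elsewhere. The RefSeq table (GRCm38.p6) matched 8 of the 9 genes, with 11 start sites. Each sequence below is the 250 bases before the start, 5′ to 3′ on the gene's strand. Capitals mark matches, on either strand, to CACCTG, an E-box bound by Snail and Zeb repressors, or TGAGTCA, the AP-1 element. The searched core of the antioxidant response element that Nrf2 binds, TGACNNNGC, gave no match in these 3 windows. None of these motifs overlapped another.
Cldn3, chr5:134985964-134986213, plus strand: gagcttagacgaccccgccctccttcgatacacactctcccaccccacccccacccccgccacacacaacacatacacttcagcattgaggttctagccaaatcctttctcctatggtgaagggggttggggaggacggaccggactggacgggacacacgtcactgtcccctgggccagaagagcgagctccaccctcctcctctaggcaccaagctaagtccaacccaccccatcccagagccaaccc
Cldn4, chr5:134946935-134947184, minus strand: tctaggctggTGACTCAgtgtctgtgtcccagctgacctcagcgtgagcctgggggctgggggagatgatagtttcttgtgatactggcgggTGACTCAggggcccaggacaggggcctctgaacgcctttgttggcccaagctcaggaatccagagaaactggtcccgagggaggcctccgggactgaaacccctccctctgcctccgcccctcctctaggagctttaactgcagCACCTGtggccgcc
Cldn6, chr17:23679115-23679364, plus strand: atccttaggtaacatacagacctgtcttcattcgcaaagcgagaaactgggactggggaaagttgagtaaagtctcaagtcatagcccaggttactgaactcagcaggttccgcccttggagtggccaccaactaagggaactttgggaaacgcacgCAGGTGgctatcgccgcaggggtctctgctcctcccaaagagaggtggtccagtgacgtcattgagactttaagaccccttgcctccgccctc
The Cldn4 window held CACCTG at 14 to 9 bases before the start and the AP-1 element at 240 to 234 and at 158 to 152. The Cldn6 window held the E-box at 93 to 88 bases, and the Cldn3 window held none of the motifs. Among all 32851 promoter windows of this length, 17.2% held the E-box, 4.46% the AP-1 element and 10.2% the antioxidant response core. These matches describe letters only, and binding was not measured.

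Values are given as log2(signal + 16) after quantile normalization, on which an array's median probe set was 6.72. A level compares samples for a gene and not 1 gene with another. In every wild-type array Nfe2l2 lay between 10.49 and 12.25, and in every knockout array between 4.41 and 8.26, with 33 arrays each. The arrays of PND1 to PND4 had been scaled differently before deposit (medians of 40.6 to 81.33, against 85.16 to 127.4 at the 7 other ages), so levels set across these sets rest on the normalization. Of the genes read against the tissue label, Sftpc, the surfactant protein C gene, lay between 10.97 and 14.83 over all arrays. Epcam of epithelium lay between 9.72 and 12.39, Pecam1 of endothelium between 8.8 and 12.31 and Col1a1 of mesenchyme between 9.2 and 14.2. The lung epithelial gene Nkx2-1 was less clear, at 5.53 to 8.33 with a median of 7.03, near the median probe set. The club cell gene Scgb1a1 ranged from 4.43 to 14.99, and its lowest value from E15.5 on was 6.73. The number of arrays, 3 per group, limits the precision.

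Libraries at several ages need naming first. Wild-type E13.5 replicate 2 had a summed signal of 6 cartilage genes of 16800, against 5160 and 2020 in replicates 1 and 3, of 6 skeletal muscle genes of 22300 against 5220 and 4050, and of 7 liver genes of 13900 against 1390 and 1260. Its 19 epithelial genes summed to 10400 against 18900 and 19900. Wild-type PND14 replicate 2 had 38900 for 6 thymus genes against 708 and 6470 in its group. These 2 are the libraries said below to stand apart. Both are wild type and were singled out after their values were seen. Knockout libraries with high sums, such as E18.5 replicate 1 for cartilage (13700), stayed in the fits without these 2. Single libraries at PND1 to PND4 also had high sums. In wild type the highest liver sums were 50400, 159000, 69100 and 67900 at PND1, PND2, PND3 and PND4. The lowest were 883, 219, 792 and 107. The 9 oesophagus genes summed to 499, 964 and 24200 in wild type at PND2. In knockout the skeletal muscle sums at PND3 were 2720, 12300 and 93800. The part of these in values at PND1 to PND4 was not tested. At E17.5 and E18.5 the order of the knockout libraries went against their labels. On a scale from wild-type E15.5 (0) to wild-type PND0 (1), made from 2502 genes without the 9 described here, wild type lay at 0.57 ± 0.06 (SD, n = 3) at E17.5 and at 0.79 ± 0.09 at E18.5. The knockout libraries labelled E17.5 lay at 0.75 ± 0.04 and those labelled E18.5 at 0.44 ± 0.07. Marker genes of leukocytes, 8 in all, showed the same order, with sums of 5780 to 8260 and 15100 to 20600 in wild type and of 20100 to 21100 and 5420 to 5850 in the libraries labelled as knockout E17.5 and E18.5. Results at these ages are given by label and with the ages left out.

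**Figure D1:**
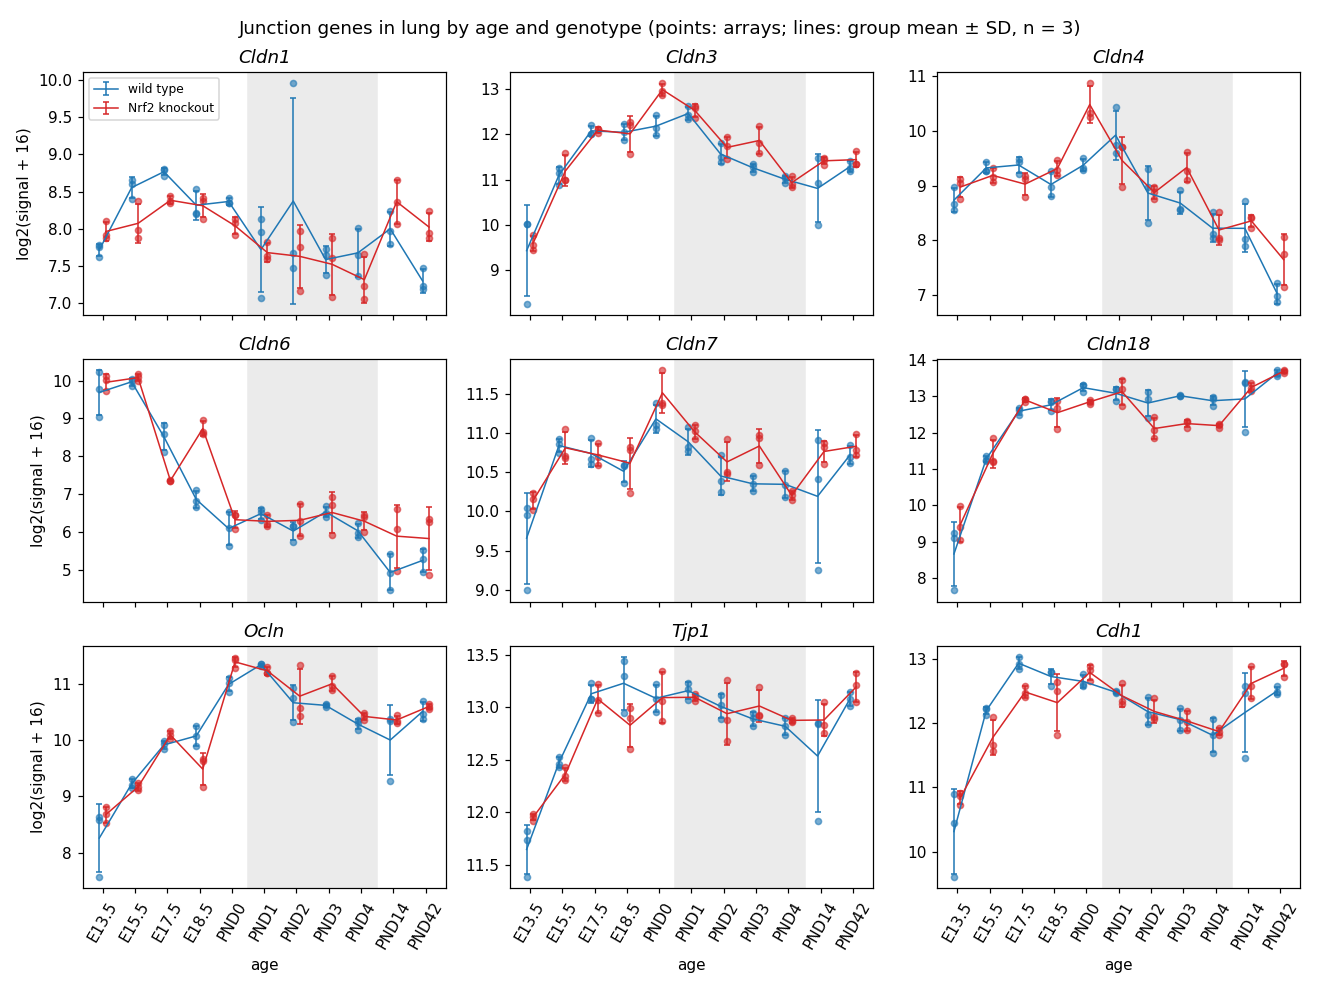
Log2(signal + 16) of the 9 genes (y axis) at 11 ages (x axis, evenly spaced) in wild type (blue) and knockout (red), with points for arrays, lines for group means and bars for the SD of 3 arrays. The grey band marks PND1 to PND4, scaled differently before deposit. Cldn18 climbed from 8.66 to 13.64 in wild type while Cldn6 went from 9.69 to 5.26, and Cldn3, Cldn4 and Ocln had their highest mean at PND0 or PND1.

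Across lung development Cldn18 rose, Cldn6 fell and most of the other genes rose. From E13.5 to PND42 in wild type 6 of the 9 genes rose (background 19.9% of probe sets higher) and 2 fell (22.5% lower), and in knockouts 6 rose (20.3%) and the same 2, Cldn4 and Cldn6, fell (23.1%). Age changed all 9 genes in each genotype by the F test (background 65.2% in wild type and 70.6% in knockout), so a change with age was common in this tissue. In bulk lung, fewer epithelial cells and less RNA per cell cannot be told apart.

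Cldn18 rose most. Wild-type libraries at E13.5 stood at 9.09, 7.65 and 9.23 and at PND42 at 13.63, 13.56 and 13.73, so all adult libraries lay above all embryonic ones. The rise was 4.99 ± 0.25 on the log2 scale (SE, adjusted p = 7.8e-23, limma) in wild type and 4.22 ± 0.25 (adjusted p = 5.4e-20, limma) in knockouts. Most of it came early. Cldn18 gained 2.62 ± 0.25 from E13.5 to E15.5 and 1.31 ± 0.25 by E17.5 in wild type. The PND42 level was the highest of all ages in both genotypes and did not overlap the next.

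Cldn6 moved the other way, from a wild-type high of 9.96 ± 0.10 (SD, n = 3) at E15.5 to a low of 4.94 ± 0.48 at PND14, a 32.4-fold range. The E13.5 and E15.5 libraries overlapped. It fell by 1.45 ± 0.31 (SE) from E15.5 to E17.5 and by 1.65 ± 0.31 from E17.5 to E18.5 (adjusted p = 0.00036 and 0.0013, limma). Among the 9 genes Cldn6 alone passed in that second wild-type step (background 1.23%). From E13.5 to PND42 the change was -4.43 ± 0.31 in wild type and -4.12 ± 0.31 in knockouts. After birth the gene was dim, and both genotypes stayed at or below a mean of 6.54 from PND0.

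Cldn4 fell after birth, and no step before birth passed for it in wild type. Its wild-type mean was 8.73 ± 0.22 (SD, n = 3) at E13.5, 9.92 ± 0.45 at PND1 and 7.02 ± 0.18 at PND42, and the PND1 libraries lay above all of the next age in order, E17.5. That order sets arrays against each other that were scaled differently before deposit, and is a description. From PND1 to PND4 it lost 1.70 ± 0.22 (SE, adjusted p = 1.9e-07, limma), and from PND14 to PND42 another 1.20 ± 0.22 (adjusted p = 8.1e-05, limma). Adult lung had the lowest Cldn4 of all ages in both genotypes.

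In wild type Cldn3, Cldn7, Ocln, Tjp1 and Cdh1 rose early, as did Cldn18. From E13.5 to E15.5 in wild type 6 genes rose (background 4.57% higher), and the 3 others had values above 0. The step was 1.67 ± 0.25 for Cldn3, 1.88 ± 0.20 for Cdh1, 1.18 ± 0.22 for Cldn7, 0.96 ± 0.19 for Ocln and 0.82 ± 0.15 for Tjp1. Wild-type E13.5 replicate 2 was low in these genes, at 8.26 against 10.02 and 10.01 for Cldn3. Without it the Ocln step was 0.61 (adjusted p = 0.052, limma), that of Cldn3 was 1.09, and the 5 other calls held. In knockouts 3 genes rose in this step, Cldn3, Cldn18 and Cdh1 (background 1.83% higher), while Cldn7 (0.68 ± 0.22), Ocln (0.49 ± 0.19) and Tjp1 (0.41 ± 0.15) did not pass (adjusted p = 0.076, 0.19 and 0.13, limma). The knockout Cdh1 step of 0.93 ± 0.20 was 0.77 (adjusted p = 0.078, limma) without E15.5 replicate 1. From E15.5 to E17.5 a further 5 rose, Cldn18 with Cldn3, Ocln, Tjp1 and Cdh1 (background 8.74% higher), and Cldn6 fell (9.21% lower). With array medians subtracted in place of quantile normalization, which shifted the median of all probe sets by -0.14, the steps of Cldn3, Ocln, Tjp1 and Cdh1 were 0.73, 0.49, 0.38 and 0.44 and none of these 4 passed (adjusted p = 0.053 to 0.17, limma). That scaling also moved the share of called probe sets that were higher from 48.7% to 30.3%.

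Ocln was the only gene of the 9 to pass between E18.5 and PND0 in wild type (background 4.15%), with libraries at 10.26, 10.08 and 9.89 before birth and at 11.01, 10.86 and 11.11 on the day of birth. The groups did not overlap, and the rise was 0.92 ± 0.19 (SE, adjusted p = 0.0016, limma). In knockouts the same step was called for Cldn3, Cldn4, Cldn7 and Ocln (rising, 12.1% higher) and for Cldn6 (falling, 13.5% lower), with the order of the knockout labels in doubt at its start.

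After birth 4 genes fell between PND1 and PND4 in wild type (background 4.75% lower). Besides Cldn4 these were Cldn3 (-1.46 ± 0.25), Ocln (-1.06 ± 0.19) and Cdh1 (-0.67 ± 0.20, adjusted p = 0.023, limma). The Cdh1 call was lost without any 1 of 5 of the 6 libraries, that is without PND1 replicates 1 to 3 or PND4 replicates 1 or 3 (-0.67, -0.67, -0.66, -0.67 and -0.53, adjusted p = 0.053 to 0.16, limma). In knockouts 5 fell (3.89% lower), Cldn3, Cldn4, Cldn7, Cldn18 and Ocln. The knockout Cldn18 fall (-0.93 ± 0.25) missed without PND1 replicate 1, PND1 replicate 3 or PND4 replicate 1 (-0.77, -0.90 and -0.91, adjusted p = 0.05 to 0.093, limma). The mean of 19 epithelial genes moved beside these steps, from 10.31 ± 0.13 (SD, n = 3) at PND1 to 9.62 ± 0.07 at PND4 in wild type, and its part in them was not tested.

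From PND0 to PND14 in wild type 6 of 9 fell (background 7.39% lower), and from PND14 to PND42 Cldn4 fell while Cldn18 and Tjp1 rose (14.8% in either direction). Wild-type PND14 replicate 2 decided several of these calls. It stood at 9.25 for Cldn7 against 10.91 and 10.42, and at 12.03 for Cldn18 against 13.39 and 13.37. Without it the fall of Cldn7 was -0.52 (adjusted p = 0.056), of Tjp1 -0.24 (0.25) and of Cldn6 -0.93 (0.057), and the later rises were 0.26 for Cldn18 (0.61) and 0.23 for Tjp1 (0.31), all by limma, so none of the 5 passed. The Cldn18 rise (0.71 ± 0.25, adjusted p = 0.048, limma) was lost in 11 of 17 alternatives, also without any 1 of the 3 wild-type PND42 libraries (0.67 to 0.76, adjusted p = 0.081 to 0.14) and on the values as deposited (0.50, 0.26). The Tjp1 rise was lost on the values as deposited too (0.42, adjusted p = 0.08, limma). Without wild-type PND0 replicate 3 the Cldn6 and Tjp1 falls also missed (-0.94 and -0.48, adjusted p = 0.072 and 0.054, limma). The falls of Cldn3 (-1.38 ± 0.25), Cldn4 (-1.16 ± 0.22) and Ocln (-0.99 ± 0.19) were not lost by leaving out any library.

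Cldn1, Cldn7 and Tjp1 varied least in wild type. Cldn1 means spanned 1.47 in wild type, from 7.30 at PND42 to 8.77 at E17.5, and no step of the gene passed in either genotype. Its libraries at PND2 in wild type were 9.96 in replicate 2 against 7.68 and 7.48. Cldn7 spanned 1.52, from 9.66 at E13.5 to 11.18 at PND0, and Tjp1 1.58, from 11.65 at E13.5 to 13.23 at E18.5.

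The other junction genes of lists drawn up for this tissue gave a wider view. Counts here stand against 19.9% of all probe sets higher and 22.5% lower. Of 28 further tight junction genes measured, 21 rose and 5 fell from E13.5 to PND42 in wild type, with a median of 1.20 against -0.06 over all genes. Pard6b, Igsf5, Prkcz and Cgn, genes of epithelial polarity or of the junction itself, rose by 2.86 ± 0.23, 2.52 ± 0.20, 2.50 ± 0.20 and 2.49 ± 0.19. Of 16 other claudins 4 rose and 3 fell, shares near those of all probe sets, with Cldn5, the endothelial claudin, up by 3.28 ± 0.20 and Cldn11 and Cldn9 at -2.79 ± 0.32 and -2.41 ± 0.31. Of 12 adherens junction genes 9 rose and 2 fell. Among these the P-cadherin gene Cdh3 fell by 3.98 ± 0.41, against the rise of 2.19 ± 0.20 in Cdh1. Of 6 repressors of E-cadherin and related factors, Twist1, Twist2, Snai2 and Snai1 fell (-4.18 ± 0.48, -3.15 ± 0.31, -2.14 ± 0.19 and -1.56 ± 0.21), and Zeb1 rose by 1.29 ± 0.12. Over 19 general epithelial genes 15 rose and 1, Epcam, fell by 0.69 ± 0.16.

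The average knockout differences of the 9 genes were small. Averaged over the 11 ages, 3 were higher in knockouts (background 10.6% in either direction and 5.31% higher) and none lower (0 at an unadjusted p under 0.05). They were Cldn3 (0.23 ± 0.08, SE, n = 33 per genotype, adjusted p = 0.039, higher at 9 of 11 ages), Cldn6 (0.29 ± 0.09, adjusted p = 0.034, 8 of 11 ages) and Cldn7 (0.20 ± 0.06, adjusted p = 0.036, 8 of 11 ages), all by limma. Cldn4 stood at 0.19 ± 0.07 (adjusted p = 0.057, limma). The share of called probe sets that were higher was 50.3% here, 13.8% on the values as deposited and 69.1% with array medians subtracted. On the values as deposited none of the 9 passed (0.18, 0.24 and 0.16 for Cldn3, Cldn6 and Cldn7, adjusted p = 0.15, 0.11 and 0.16, limma). In the 7 ages scaled alike Cldn3 and Cldn7 missed as well (0.26 and 0.22, adjusted p = 0.18 and 0.16, limma). These calls also lay close to the threshold: leaving out 1 library at a time left 1 to 4 genes called, and Cldn3, Cldn6 and Cldn7 missed the threshold in 17, 8 and 9 of the 66 runs (adjusted p = 0.05 to 0.062, limma). Without both libraries that stand apart 4 passed, with Cldn18 (-0.18, adjusted p = 0.013, limma) and Cldn4 (0.20, 0.029) gained and Cldn6 lost (0.24, 0.073). Without E17.5 and E18.5 there were 3, with Cldn4 (0.24, 0.043) in place of Cldn6 (0.27, 0.11).

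Some of the related junction genes passed on average, at shares to be read against the 5.31% of all probe sets called higher. Of 28 tight junction genes 3 rose and none fell, namely Pard6b (0.33 ± 0.07), Cgn (0.25 ± 0.06) and Lsr (0.21 ± 0.06). Of 12 adherens junction genes 3 rose, Ctnnd1 (0.25 ± 0.04), Jup (0.21 ± 0.06) and Afdn (0.20 ± 0.05). The medians of both lists were 0.06 and 0.03, against 0.01 over all genes. For scale, 8 of 10 known Nrf2 target genes fell (background 5.25% lower), with a median of -0.32.

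At single ages 6 of 99 values passed, 4 higher and 2 lower in knockouts (background 4.80% over all probe sets and ages). They lay at E17.5, E18.5, PND0 and PND14. Without both libraries that stand apart, 13 passed. The share of all probe sets called in that fit is not given, so the 13 have no background to be read against.

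**Figure D2:**
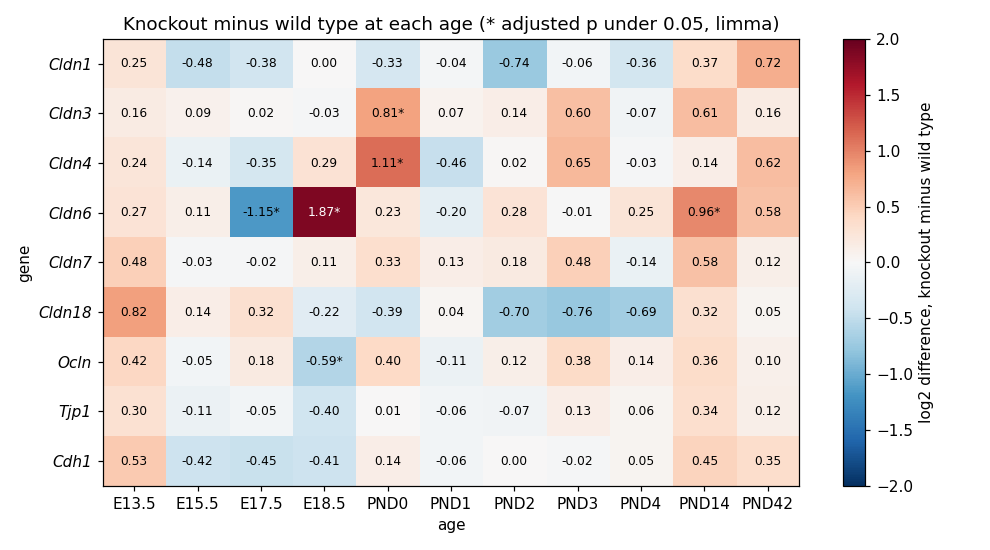
Knockout minus wild-type log2 difference for each gene (rows) at each age (columns), 3 arrays a group, with red for higher and blue for lower in knockouts and an asterisk at an adjusted p under 0.05. The 6 asterisks are Cldn6 at E17.5 (-1.15), E18.5 (1.87) and PND14 (0.96), Ocln at E18.5 (-0.59), and Cldn3 (0.81) and Cldn4 (1.11) at PND0.

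On the day of birth Cldn3 and Cldn4 were higher in knockouts (2 of 9 genes, background 5.07% higher). Cldn4 libraries stood at 9.33, 9.29 and 9.50 in wild type and at 10.88, 10.32 and 10.25 in knockout. Every knockout library exceeded every wild-type library, and the difference was 1.11 ± 0.22 (SE, adjusted p = 0.00029, limma). It passed without any single library. Cldn3 libraries stood at 12.43, 11.98 and 12.14 against 13.14, 12.88 and 12.95, again without overlap, a difference of 0.81 ± 0.25 (adjusted p = 0.028, limma). That call was lost without wild-type replicate 2 (0.70, adjusted p = 0.14), wild-type replicate 3 (0.79, 0.083), knockout replicate 1 (0.73, 0.1) or knockout replicate 3 (0.83, 0.07), by limma. Among related genes Pard6b (1.03 ± 0.23), Igsf5 (0.83 ± 0.20), Jam2 (0.68 ± 0.21) and Prkci (0.50 ± 0.12) were higher as well, 5 of 28 tight junction genes in all with none lower (median 0.10 against -0.03 over all genes). The 19 epithelial genes summed to 50700, 43500 and 41400 in knockout and to 44200, 38500 and 37500 in wild type. Sums of 9 oesophagus genes were 16600, 1960 and 4780 in knockout against 20300, 14700 and 21000 in wild type. Their part in the differences was not tested.

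The age of the Cldn3, Cldn4 and Ocln peak differed by a day between genotypes as ranked. All 3 had their highest mean at PND1 in wild type and at PND0 in knockout, a rank that crosses the differently scaled arrays. For Cldn4 the knockout libraries were 8.97, 9.71 and 9.70 at PND1 against 10.43, 9.59 and 9.75 in wild type, which overlapped (-0.46 ± 0.22, SE, adjusted p = 0.33, limma). In wild type the PND0 and PND1 libraries of Cldn3 overlapped, and in knockout those of Ocln did. From PND0 to PND14 Cldn4 fell by 2.13 ± 0.22 in knockout and by 1.16 ± 0.22 in wild type, and the difference of the steps was -0.98 ± 0.31 (adjusted p = 0.043, limma, background 7.63%). Without wild-type PND14 replicate 2 it was -0.72 (adjusted p = 0.2), and without knockout PND0 replicate 1 it was -0.78 (0.14). Leaving out any of the 3 wild-type PND0 or 3 knockout PND14 libraries also ended the call (-0.91 to -1.04, adjusted p = 0.053 to 0.088, limma). With other processing choices included, the call was lost in 15 of 24 alternatives.

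The differences in Cldn6 before birth were the largest of the 99. At E17.5 the libraries stood at 8.83, 8.59 and 8.13 in wild type and at 7.38, 7.36 and 7.35 in those labelled knockout (-1.15 ± 0.31, SE, adjusted p = 0.042, limma, background 1.22%). At E18.5 they stood at 6.83, 6.66 and 7.11 in wild type and at 8.60, 8.96 and 8.64 in those labelled knockout (1.87 ± 0.31, adjusted p = 4.1e-05, limma, background 8.75%). Neither pair of groups overlapped, and the sign turned between the ages. Leaving out any library but wild-type replicate 3 ended the E17.5 call (-1 to -1.16, adjusted p = 0.11 to 0.23, limma), as did subtracting array medians (-1.08, adjusted p = 0.052), and no library ended that at E18.5. The step from E17.5 to E18.5 differed by 3.02 ± 0.44 between genotypes (adjusted p = 2.7e-06, limma, background 7.78%), since Cldn6 fell in wild type and rose by 1.37 ± 0.31 between the knockout labels. From E18.5 to PND0 the difference was -1.63 ± 0.44 (adjusted p = 0.0076, limma, background 11.5%).

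These differences coincided with the order on the developmental scale. With the knockout libraries labelled E18.5 set against wild-type E17.5, Cldn6 differed by 0.22 ± 0.31 (adjusted p = 0.94, limma), and with those labelled E17.5 set against wild-type E18.5, by 0.49 ± 0.31 (adjusted p = 0.62, limma). None of the 9 genes passed in either crossed comparison (background 0.249% and 0.81%), and 3 of the 18 values had an unadjusted p under 0.05. Cdh1 had the largest of these values, -0.62 ± 0.20 (adjusted p = 0.24, limma). A difference in age labels and a difference in the pace of development cannot be told apart here.

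**Figure D3:**
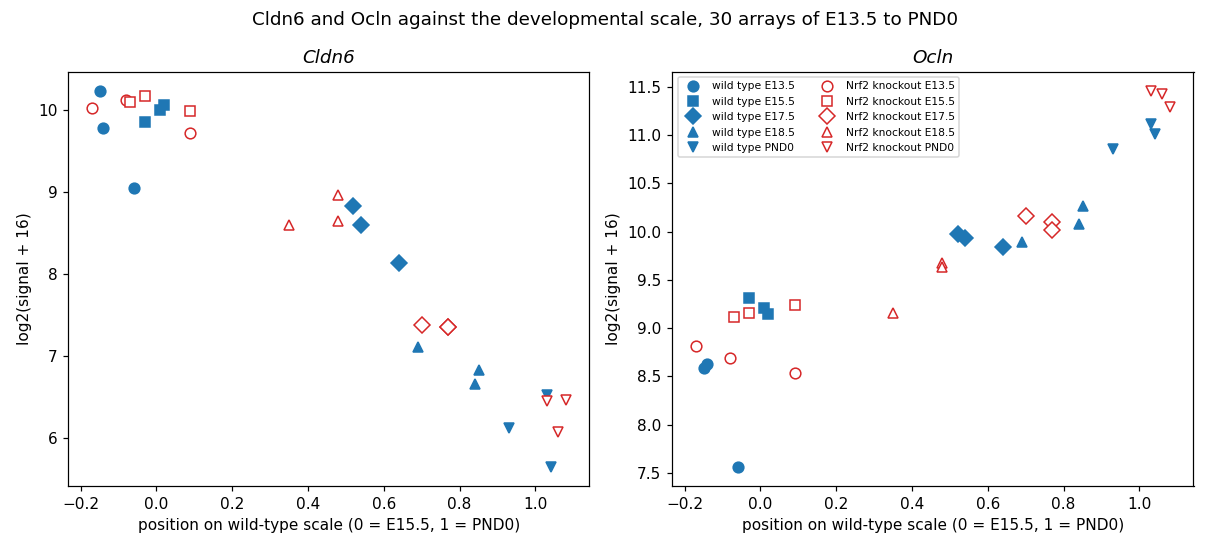
Log2(signal + 16) of Cldn6 and Ocln (y axes) against the position of each of the 30 arrays from E13.5 to PND0 on the wild-type developmental scale (x axis, 0 at wild-type E15.5 and 1 at wild-type PND0), filled for wild type and open for knockout, with a marker shape per age. The knockout arrays labelled E18.5 (0.44 on average) lie left of those labelled E17.5 (0.75), and their Cldn6 values of 8.60 to 8.96 lie above the 7.35 to 7.38 of the latter.

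Ocln at E18.5 was lower in the libraries labelled knockout, at 9.16, 9.67 and 9.63 against 10.26, 10.08 and 9.89, with no overlap (-0.59 ± 0.19, SE, adjusted p = 0.044, limma, background 8.75% in either direction). The order of these knockout labels is in doubt. Set against wild-type E17.5, the same libraries differed by -0.43 ± 0.19 (adjusted p = 0.53, limma). Those labelled knockout E17.5 differed from wild-type E18.5 by 0.02 ± 0.19 (adjusted p = 0.99, limma). The E18.5 call by label ended without wild-type replicate 1 (-0.50, adjusted p = 0.21), wild-type replicate 2 (-0.59, 0.13), knockout replicate 1 (-0.42, 0.32) or knockout replicate 3 (-0.66, 0.053), by limma. It was lost in 10 of 19 alternatives in all, among them the values as deposited (-0.54, adjusted p = 0.13), array medians subtracted (-0.49, 0.21), scaling to a trimmed mean (-0.54, 0.081), no intensity trend (-0.59, 0.062) and the 6 arrays alone (-0.59, 0.087). The step from E18.5 to PND0 was larger in knockouts by 0.99 ± 0.27 (adjusted p = 0.01, limma), or 0.83 (adjusted p = 0.058) without knockout E18.5 replicate 1. Some other junction genes were lower at that age by label (background 4.03% lower). They are named as examples and not counted, so they say nothing about the lists as a whole. They were Magi1, a scaffold (-1.31 ± 0.21), Pard6b (-1.07 ± 0.23), Cldn5 (-0.96 ± 0.20), Cldn10 (-0.73 ± 0.22) and F11r (-0.60 ± 0.17), while Lsr was higher (0.62 ± 0.20). In the same libraries 6 of 10 type 1 and 3 of 9 type 2 alveolar cell genes fell (background 4.03% lower). Type 2 sums were 53900 to 71200 against 79000 to 94600 in wild type. Knockout E18.5 replicate 1, the lowest for Ocln, had a cartilage sum of 13700 against 1150 and 1100 in replicates 2 and 3. Its thymus sum was 3660 against 325 and 267, and its epithelial sum 34600 against 46700 and 42000. Wild-type E18.5 replicate 3 had a thymus sum of 5800 against 215 and 427. The part of all these in the Ocln value was not tested.

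At PND14 Cldn6 passed (0.96 ± 0.31, SE, adjusted p = 0.042, limma, background 8.20%), with libraries of 5.43, 4.48 and 4.92 in wild type and of 4.99, 6.09 and 6.62 in knockout. The groups overlapped, and all 6 values lay below the median probe set. Without wild-type replicate 2 the value was 0.72 (adjusted p = 0.37), without wild-type replicate 3 0.95 (0.065), without knockout replicate 2 0.86 (0.13) and without knockout replicate 3 0.60 (0.33), by limma, and none passed. In a fit of these 6 arrays alone the adjusted p was 0.65. The oesophagus sums were 1360, 20200 and 26200 in the knockout libraries in that order and 3260, 3930 and 16700 in wild type. In knockout both higher Cldn6 values lay in the libraries with the higher sums. In wild type the highest Cldn6 value, 5.43, lay in the library with the lowest sum, 3260, and the library with 16700 stood at 4.92. The part of these sums was not tested.

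Whether the knockout difference depended on age was tested across all 11 ages. It did for Cldn4, Cldn6, Cldn18 and Cdh1, 4 of 9 genes (background 28.3%), with adjusted p of 0.0017, 0.00019, 0.004 and 0.025 (F test, limma). Without E17.5 and E18.5 Cldn6 (0.59) and Cdh1 (0.16) no longer passed. Without both libraries that stand apart 6 genes passed, Cldn3 (0.0029) and Ocln (0.0033) being added. In the 7 ages scaled alike Cldn18 did not pass (adjusted p = 0.24, limma).

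The lowest Cldn18 differences lay at PND2 to PND4, although no single age passed. Knockout libraries at PND3 stood at 12.29, 12.14 and 12.32 against 13.03, 13.02 and 13.00 in wild type, without overlap (-0.76 ± 0.25, SE, adjusted p = 0.051, limma, background 8.08%). The differences at PND2 and PND4 were -0.70 ± 0.25 and -0.69 ± 0.25 (adjusted p = 0.088 and 0.29, limma), against 0.82 ± 0.25 at E13.5 and 0.05 ± 0.25 at PND42. The E13.5 value was 0.31 (adjusted p = 0.79, limma) without wild-type E13.5 replicate 2 and 1.10 (adjusted p = 0.011, limma) without replicate 3. At E13.5 sums of 6 club and ciliated cell genes were 36900, 2740 and 18200 in knockout against 1680, 1410 and 1400 in wild type, and their part in that value was not tested. In a fit of PND1 to PND4 alone, where the arrays were scaled alike, the average was -0.53 (adjusted p = 0.00015, limma). Without both libraries that stand apart PND2, PND3 and PND4 passed (adjusted p = 0.0051, 0.0015 and 0.033, limma). A second Cldn18 probe set did not show this. It gave -0.02, 0.07 and -0.14 at PND2, PND3 and PND4, and passed instead at PND14 (-0.96, adjusted p = 0.023, limma) and PND42 (-1.05, adjusted p = 0.012, limma), where the brighter set gave 0.32 and 0.05. The direction for this gene depends on which probe set is read.

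Other genes with more than 1 probe set agreed to different degrees. The 3 further Cldn3 sets followed the first over the 66 arrays (Pearson's r of 0.94 to 1, a description over arrays that share ages and genotypes). The second Ocln set had r of 0.81, with -0.68 at E18.5 and -0.05 at PND0, where the brighter set gave -0.59 and 0.40. For dependence on age the second set passed (adjusted p = 0.022, F test, limma) and the brighter did not (0.071). The 3 other Cldn1 sets were dim and did not follow it (r of -0.08 to 0.31).

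Within groups, Cldn3 and Cldn7 went up and down with the level of epithelial genes in a library. Over the 66 deviations from group means, r with the mean of 19 epithelial genes was 0.94 for Cldn3, 0.91 for Cldn7, 0.75 for Cldn18, 0.73 for Ocln, 0.70 for Cdh1, 0.55 for Tjp1 and 0.42 for Cldn6. It was 0.17 for Cldn4 and -0.02 for Cldn1. All points share their array's scaling, and wild-type E13.5 replicate 2 and PND14 replicate 2 lie far from the rest. Between members, Cldn3 and Cldn7 had the highest such value, 0.86.

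**Figure D4:**
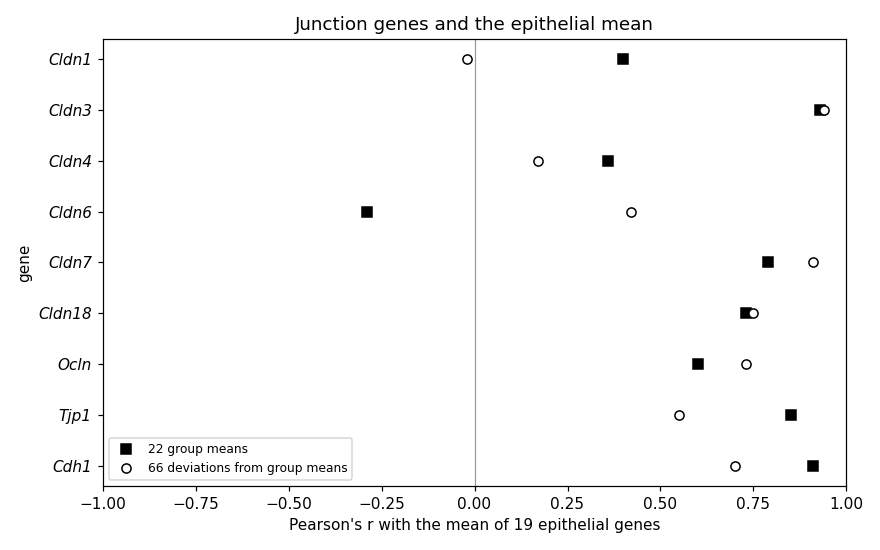
Pearson's r (x axis) of each of the 9 genes (y axis) with the mean of 19 epithelial genes, over 22 group means (filled squares) and over 66 deviations from group means (open circles). Cldn3 (0.93 and 0.94) lies at the right on both, Cldn6 is below 0 over group means (-0.29), and Cldn4 and Cldn1 are near 0 over deviations (0.17 and -0.02).

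By Pearson's r over the 22 group means, the genes most like each member were named as a description. Cldn18 was closest to Tspan8 (0.965), Cldn6 to Prr36 (0.958), Tjp1 to Clic3 (0.97), Cldn7 to Carmil1 (0.858) and Cldn1 to Rnpc3 (0.861). Cldn3 was closest to Fgfbp1 (0.945), followed by the epithelial transcription factor gene Elf5 (0.936) and periplakin, Ppl (0.922). Ocln was close to Kdsr (0.962) and to the polarity gene Pard6b (0.957). Cdh1 was close to Dnajb13 (0.965) and to Foxj1 (0.954), a transcription factor of ciliated cells. Cldn4 had Hnrnpa1 (0.891) and Mpzl2 (0.865).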

How the data were processed

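The authors deposited linear intensities, a signal for each probe set on each array. The submitters' processing notes name GCOS. Its version and scaling are not given in the sources used here. Genotype, age and replicate came from the sample labels.

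Of 45101 probe sets 64 controls were left out. By the platform annotation, 1 symbol was given for 34945 of the other 45037, several for 932 and none for 9160, and symbols were updated through the GRCm38.p6 list of genes. Signals were quantile normalized and analysed as log2(value + 16), so differences of dim genes are understated. Within groups the correlation between arrays was 0.9266 to 0.9834. A limma model (3.58.1, R 4.3.3, data.table version 1.17.8) with 22 group means and an intensity trend (44 residual and 6.69 prior degrees of freedom) was fitted to all probe sets. Contrasts covered the knockout minus wild-type difference, on average and at each age, 8 steps between ages in each genotype and their differences, and F tests of age. P-values were two-sided and adjusted by the Benjamini-Hochberg method over 45037 probe sets, with a threshold of 0.05. Exact permutation of 3 against 3 cannot go below 0.1 and was not used. The model was tested on simulated data.

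The members, gene lists and tests were chosen with earlier results of these data known. The named genes were the members, list genes and, for each member, the 3 genes with the highest correlation over group means; the motifs, list genes with values and libraries singled out were chosen after their values were seen. Alternatives covered scaling, pseudocount, filter, variance model, array weights, ages, a replicate block and each library left out. Replicate numbers did not pair the samples. Figures used matplotlib 3.10.9 and Python 3.11.15.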

Additional observations from a re-analysis of the deposited data

Results flagged for a closer look

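The knockout minus wild-type difference depended on age for 4 of the 9 genes by limma's F test over 11 ages. The adjusted p was 0.0017 for Cldn4, 0.00019 for Cldn6, 0.004 for Cldn18 and 0.025 for Cdh1. Without E17.5 and E18.5 it was 0.59 for Cldn6 and 0.16 for Cdh1, while Cldn4 and Cldn18 still passed. For Cldn18 it was 0.24 in a fit of the 7 ages whose arrays were scaled alike.

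A difference between the genotypes in a step between ages was found 4 times, each tested as an interaction in limma. For Cldn6 the step from E17.5 to E18.5 differed by 3.02 on the log2 scale and that from E18.5 to PND0 by -1.63. For Ocln the step from E18.5 to PND0 differed by 0.99, and for Cldn4 the step from PND0 to PND14 by -0.98. The first 3 involve the knockout libraries labelled E18.5, whose place on the developmental scale goes against their label. A second Ocln probe set did not show the higher knockout value at PND0. The last, for Cldn4, was lost in 15 of 24 alternatives.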

How the results depend on the processing

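No value reversed its direction across a call. Of the single values under alternatives, 4360 kept their status, which for many was not called in either fit. Another 142 lost a call and 98 gained one. The average over ages called 3 genes, against 0 on the values as deposited, 5 with array weights and 1 in PND1 to PND4 alone, and 1 to 4 with each library left out. Of 99 values at single ages 6 were called, against 17 with array weights, 16 when only the 6 arrays of an age were fitted and 13 without both libraries that stand apart, with 5 to 11 when each library was left out. Dependence on age was called for 4 genes, against 2 without E17.5 and E18.5 and 4 to 6 with each library left out. Of 72 differences between steps 4 were called, against 2 with a pseudocount of 1 and 8 with array weights, and 3 to 6 with each library left out. Wild-type steps ranged from 32 to 40 calls and knockout steps from 32 to 38 with each library left out, and age was called for 9 genes in both genotypes every time. Leaving out a library leaves fewer samples, and the cause of the other changes was not tested. No share of all probe sets stands beside the counts under alternatives, so a gain in calls cannot be read as particular to these genes.

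With the replicate number as a block, 2 genes passed on average, 3 for dependence on age, 4 values at single ages and 3 differences between steps. The numbers did not pair the samples: of 33 pairs across genotypes, 1 correlated above 0.1 and 5 below -0.1 (from -0.18 to 0.21), and 13 samples correlated best with their own number. Cldn6 is dim after birth, so its folds are understated.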
